A study of Danio rerio with 2 samples.

Results

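The cells described here came from the trunks of 60 hpf Tg(olig2:dsred) zebrafish and carried transcripts of both olig2 and gfap. They were chosen by raw UMI counts, summed by gene symbol: at least 5 UMIs of olig2, at least 3 of gfap, at most 1 of sox10, fewer than 20 of fabp7a and at most 2 of hoxb13a, hoxa13a and hoxa13b together, in cells with at least 1000 genes and under 5% globin UMIs. Of the 4967 cells of the 60 hpf library that passed these filters, 382 met the rule, or 7.69% (95% exact binomial interval 6.96 to 8.47). They are called gfap+ olig2+ cells below. A UMI is a molecular tag that marks 1 captured transcript.

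The libraries analysed here were made with the 10x Genomics kit for transcript 3' ends, 1 at 60 hpf and 1 at 28 hpf. Carriers of the transgene, in which olig2 regulatory sequence drives dsRed, were outcrossed to wild type fish, the trunks behind the hindbrain were dissociated with trypsin and collagenase, and fluorescent cells were sorted by FACS. Both stages carried the same transgene and the labels name no treatment. Trunks of many fish were pooled for each library, so differences between fish were not measured. The red protein outlasts olig2 transcription, so the sort also keeps progeny that no longer transcribe olig2. The gfap+ olig2+ cells were compared with 404 sox10+ cells of the same library (2 or more UMIs of sox10) and with 3704 olig2+ cells of 28 hpf (5 or more UMIs of olig2, out of 7664 filtered cells).

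Olig2 is the transcription factor that defines the pMN domain, a ventral strip of the embryonic spinal cord from which motor neurons and later oligodendrocyte precursor cells (OPCs) arise. Radial glia are elongated progenitors along the central canal that carry the intermediate filament proteins Gfap and Vimentin. In such progenitors Delta ligands on 1 cell activate Notch receptors on its neighbours, Notch switches on Her repressors, and Her proteins hold proneural genes down and keep the cell undifferentiated. Sox10 marks cells that have entered the oligodendrocyte lineage, and in the trunk also cells derived from the neural crest.

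With 1 library per stage there was no replicate, so no difference has a test, and stage and library cannot be told apart. A level is the summed UMIs of a gene per 10000 UMIs of the group. Intervals on levels (exact Poisson), on shares of cells (exact binomial) and on log2 ratios (exact conditional) are at 95% and cover counting error only. A gene was called higher or lower where its levels differed at least 2-fold, among genes whose pooled level would give at least 20 UMIs in the smaller group. The files held 95108584 UMIs in 10124 cells at 28 hpf and 70432500 in 7905 at 60 hpf, and 24 barcodes occurred in both, none of them among the gfap+ olig2+ cells.

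Depth within the gfap+ olig2+ cells ranged from 1879 to 148988 UMIs with a median of 9265 (2617.5 genes), and all of them together gave 5495087 UMIs. The sox10+ cells had a median of 7863 UMIs and the 28 hpf olig2+ cells one of 7664.5. Since the rule counts raw UMIs, deep cells met its minimums more readily and its maximums less readily. The step that added gfap took the olig2+ cells of 60 hpf down to 617 out of 1131. The sox10 limit then left 544, the fabp7a limit 451 and the hox13 limit 382. Around the gfap threshold, 40 cells had 3 UMIs and were kept, and 52 cells had 2 and were left out. Their medians of vim were 17.1 and 10 UMIs per 10000. Around the olig2 threshold, 25 cells with 5 UMIs were inside and 25 with 4 outside, with vim medians of 20.8 and 16.7. At the upper limits, 29 cells with 1 UMI of sox10 were inside and 7 with 2 outside, 2 cells with 19 of fabp7a were inside and 4 with 20 outside, and 10 cells with 2 hox13 UMIs were inside and 7 with 3 outside.

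The values that chose the cells are given as a description. Raw olig2 ranged from 5 to 220 UMIs with a median of 25, and raw gfap from 3 to 180 with a median of 9. The summed level of olig2 was 25.9 per 10000 in gfap+ olig2+ cells, against 32.9 in sox10+ cells and 28.7 in 28 hpf olig2+ cells. For gfap the levels were 11.8, against 3.66 and 3.65 in the same order of groups. Of the other markers of the group, her4.1 stood at 9.11, against 3.59 in sox10+ cells and 6.70 at 28 hpf, and fgfbp3, a carrier protein for fibroblast growth factors, at 3.39, against 1.84 and 0.335. The same rule applied to 28 hpf took 1676 cells, 21.9% of that library.

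Not every cell had a progenitor profile alone. The neuronal RNA-binding protein gene elavl4 was at 0 UMIs in 147 of the 382 cells and at 10 or more per 10000 in 136, with 38 cells from 3 to under 8. A limit of 5 per 10000, set after these values were seen, put 221 cells below it (elavl4-low) and 161 at or above it (elavl4-high). This limit divides a range and does not define cell types. The elavl4-low cells had a median of 6679 UMIs, against 15052 in elavl4-high cells, which held 65.0% of the UMIs of the group. Predicted doublets were the highest scores of the doublet caller Scrublet, up to a share of the library set by cell number. They made up 2.26% of elavl4-low cells, against 17.4% of elavl4-high cells. The part of doublets in the elavl4-high profile was not tested, and the main results are therefore given for the whole group and for elavl4-low cells.

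**Figure D1:**
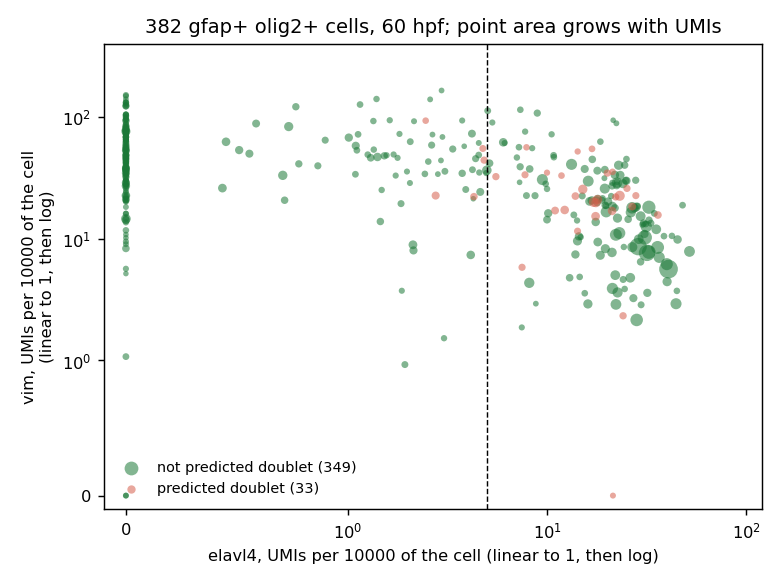
Each point is 1 of the 382 gfap+ olig2+ cells, with elavl4 on the x axis and vim on the y axis in UMIs per 10000 of the cell, both linear to 1 and logarithmic above. Red points are the 33 predicted doublets, point area grows with the UMIs of the cell, and the dashed line is the limit of 5 elavl4 UMIs that separates 221 cells from 161.

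The elavl4-high cells carried cholinergic motor neuron transcripts beside progenitor transcripts. The vesicular acetylcholine transporter gene slc18a3a stood at 1.58 per 10000 in elavl4-low cells, against 10.2 in elavl4-high cells. The level of chata, which makes acetylcholine, was 0.609 in elavl4-low and 5.99 in elavl4-high cells, and that of isl1, a motor neuron homeobox gene, 1.13 and 4.03. Of the 18 genes of the motor neuron list, 17 were lower in elavl4-low than in elavl4-high cells and none was higher, where 23.3% of all genes compared were lower and 10.1% higher. elavl4 is itself on that list and was used for the limit. The progenitor genes ran the other way: vim was 50.4 in elavl4-low and 17.5 in elavl4-high cells, her4.2 34.8 and 6.79, lfng 11.4 and 3.59, and mdka, a secreted growth factor, 25.9 and 6.99. When every cell was thinned to 2000 UMIs, a UMI of vim was found in 97.2% of elavl4-low cells and in 91.3% of elavl4-high cells.

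Free RNA was gauged in cells that should lack these transcripts, 550 cells of the same library with 5% or more globin UMIs. After globin genes were removed and the cells thinned to 2000 UMIs, 549 of them remained, with a median of 5701 non-globin UMIs before thinning, against 9255.5 in gfap+ olig2+ cells. For chata or slc18a3a the shares were 17.4% (12.6 to 23.1) in elavl4-low and 14.9% (12.1 to 18.2) in globin-rich cells, with intervals that overlap. In elavl4-high cells the share was 83.9% (77.2 to 89.2). Counts were not low in every elavl4-low cell: slc18a3a reached 37 UMIs in 1 of them before thinning. The part of free RNA in the elavl4-low share was not tested. By contrast vim was found in 94.7% of all gfap+ olig2+ cells, against 9.84% of globin-rich cells, and sox3 in 55.4%, against 1.28%.

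Markers of other cell types were checked against the label. Of 12 endothelial and immune markers, none reached the minimum for comparison, with a summed level of 0.0437 per 10000, against 0.0868 in sox10+ cells. The 11 neural crest markers outside the rule summed to 0.189, against 3 in sox10+ cells. Muscle markers summed to 2.69, against 1.2 in sox10+ cells, and 1 cell held much of this: 55.1% of the UMIs of actc1b, a muscle actin, came from a single cell. A UMI of actc1b, mylpfa or tnnt3b was found in 15.8% of gfap+ olig2+ cells, against 20.6% of globin-rich cells, so as a share of cells these genes were at background. The 12 floor plate markers found summed to 5.23, against 3.11 in sox10+ cells, and of 9 compared 2 were higher and 3 lower. The higher ones were foxj1a, a regulator of motile cilia, at 2.16 against 0.451, and the netrin gene ntn1a, at 1.70 against 0.480, while shha, foxa2 and nkx2.2b were at 0.0546, 0.00364 and 0.0346. The part of floor plate cells in the values below was not tested.

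Compared with sox10+ cells, the gfap+ olig2+ cells carried a neural progenitor and Notch profile and almost none of the oligodendrocyte lineage. The transcripts of vim were 4.59-fold higher, those of nes, which encodes the progenitor filament nestin, 6.48-fold, and those of the Delta ligand gene dla 10.9-fold. The transcripts of olig1, of nkx2.2a and of the myelin gene mbpb were 40.3-, 22.3- and 36.8-fold lower. The rule limited sox10 in gfap+ olig2+ cells and the other group required it. These lower levels are therefore not independent of the choice of cells. The rule also asked for gfap in the gfap+ olig2+ cells only, and vim rose with gfap. In cells that met the other limits, median vim was 8.35, 10, 17.1 and 28.8 per 10000 at 1, 2, 3 and 4 gfap UMIs. The higher vim level is therefore not independent of the choice of cells either. The part of the gfap minimum in the other higher levels was not tested. Of 10559 genes compared, 1053 (9.97%) were higher and 1721 (16.3%) lower, and the median log2 ratio of all was -0.14.

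Of the neural progenitor list, 19 of 20 genes were compared, 10 were higher and 1 lower, with a median log2 ratio of 1.06. vim averaged over all UMIs stood at 29.0 per 10000 in gfap+ olig2+ cells and 6.32 in sox10+ cells. The median cell had 34.0 per 10000, with quartiles of 16.7 and 58.5. The soxB1 gene sox3, which maintains neural progenitors, was at 4.6 against 1.06 (log2 ratio 2.11, 1.97 to 2.26), and mdka at 13.6 against 3.57. pax6a, a patterning factor of neural progenitors, was at 0.826 against 0.106, and msi1, an RNA-binding protein of stem cells, at 1.17 against 0.161. The exception was ppp1r14bb, at 0.271 against 1.16. sox2, another soxB1 gene, did not follow sox3: it was at 1.98 in gfap+ olig2+ cells and 3.75 in sox10+ cells, short of the 2-fold limit. Among elavl4-low cells of both groups, 13 of the 18 progenitor genes compared were higher and 1 lower (background 10.7% and 22.6%), with vim at 50.4 against 5.58.

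The Delta ligand genes dla, dlb and dld were the ligands past the limit. dla was at 5.24 per 10000 in gfap+ olig2+ cells and 0.480 in sox10+ cells (log2 ratio 3.45, 3.24 to 3.67), dlb at 6.60 and 1.07 (2.62, 2.48 to 2.77), and dld at 1.59 and 0.147 (3.43, 3.06 to 3.83). The other ligands compared, dll4, jag1b and jag2b, were under the 2-fold limit, at 0.320, 0.202 and 0.746 per 10000 in gfap+ olig2+ cells. After thinning to 2000 UMIs, 73.4% of gfap+ olig2+ cells (68.6 to 77.7) had a UMI of dla, dlb or dld, against 11.4% of sox10+ cells (8.48 to 14.9) and 5.46% of globin-rich cells. Without thinning the share of gfap+ olig2+ cells was 87.2%. The share of cells with a ligand UMI differed little within the group, at 72.0% in elavl4-low and 75.2% in elavl4-high cells, with intervals that overlap. The levels did differ: the ligand list summed to 21.6 per 10000 in elavl4-low and 11.2 in elavl4-high cells. Of 6 ligands compared, 2 were higher in elavl4-low cells and 1 lower.

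Receptors and pathway genes followed. Of 19 compared, 7 were higher and none lower. The receptor genes notch1a, notch1b and notch3 were at 3.05, 1.43 and 3.57 per 10000, against 0.757, 0.383 and 0.858 in sox10+ cells. lfng, a glycosyltransferase that modifies Notch, was at 6.32 against 1.58. The feedback inhibitors nrarpa and nrarpb, which are transcribed when Notch is active, were at 1.46 and 1.62, against 0.378 and 0.337. These general components of the pathway were under the 2-fold limit: rbpja was at 0.311 against 0.308 and adam10a at 0.795 against 0.904.

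Most Her repressors were higher. Of 17 her and hey genes compared, 14 were higher in gfap+ olig2+ cells, none was lower, and the median log2 ratio was 1.31. her4.2 stood at 16.6 against 4.64 (log2 ratio 1.84, 1.77 to 1.91), her12 at 9.84 against 2.73 and her15.2 at 13.3 against 6.26. her13 had the largest ratio of those compared, at 1.87 against 0.222. The genes short of 2-fold included her9, at 0.530 against 0.598. Copies of her4 and of her15 lie in tandem and are nearly identical, and the files list her4.2 under 2 identifiers, so the split of reads among them is uncertain. Cells differed widely from each other: her4.2 was at 0 in 64 of the 382 cells, had a median of 7.05 per 10000 and quartiles of 1.03 and 24.8, and reached 651 in 1 cell.

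**Figure D2:**
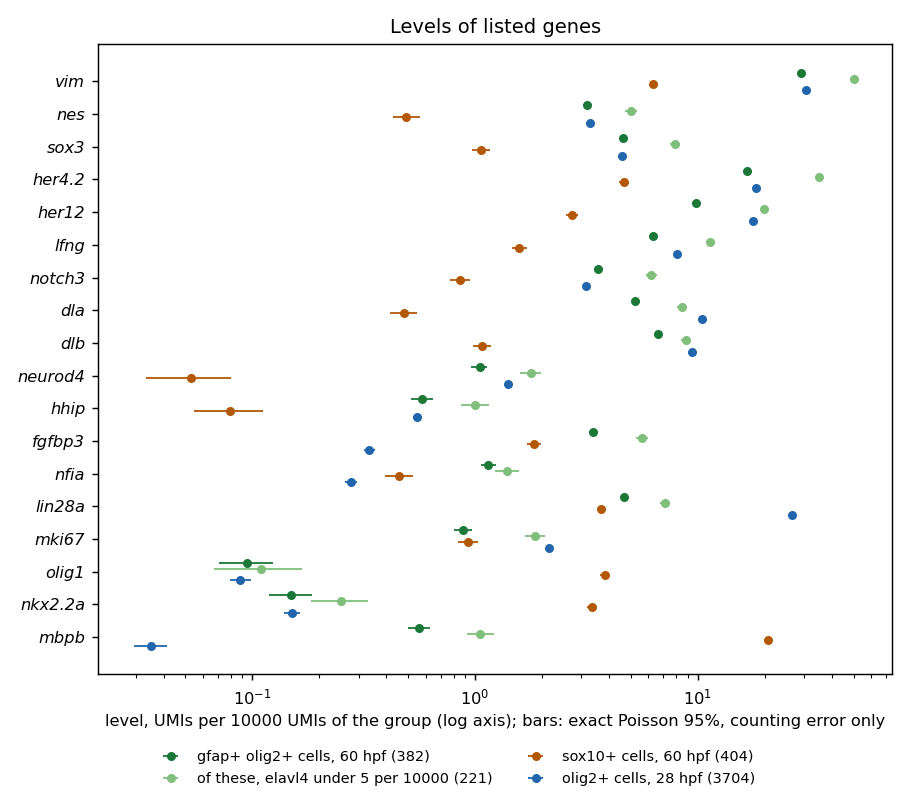
Levels of 18 listed genes on a log axis, in UMIs per 10000 UMIs of the group, for gfap+ olig2+ cells, the elavl4-low cells among them, sox10+ cells and 28 hpf olig2+ cells; bars are exact Poisson 95% intervals for counting error. vim stands at 29.0, 50.4, 6.32 and 30.7 in these groups, and lin28a at 4.67, 7.14, 3.69 and 26.6.

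Proneural genes were present in the same group of cells as Her genes. Whether single cells held both was not scored. Of 15 genes of the proneural and neuronal precursor list that were compared, 13 were higher than in sox10+ cells and none lower. neurod4 was at 1.05 against 0.0530 (log2 ratio 4.3, 3.69 to 4.99), with UMIs in 158 of the 382 cells. neurog1, a proneural factor, was at 0.732 against 0.101, ascl1a at 0.255 against 0.0120, and ebf2, a factor of early neuronal precursors, at 2.16 against 0.207. Among elavl4-low cells of both groups, neurog1 was at 1.07 against 0.0428 and neurod4 at 1.77 against 0.0250. At 2000 UMIs per cell, 29.3% of gfap+ olig2+ cells (24.8 to 34.2) had a UMI of neurog1, ascl1a or neurod4, against 1.24% of sox10+ cells (0.404 to 2.87) and 1.64% of globin-rich cells.

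Hedgehog is the ventral signal that induces the pMN domain. Of 13 Hedgehog pathway genes compared, 7 were higher and none lower. Hhip, a receptor-like inhibitor that binds Hedgehog, had 0.577 per 10000 (hhip), against 0.0795 in sox10+ cells, and the co-receptor gas1b 0.675 against 0.0868. The transcription factor gli2a was at 0.815 against 0.205. The ligands shha and shhb were near 0 in gfap+ olig2+ cells, at 0.0546 and 0.0146. Of the ventral patterning list, 7 of 10 genes were higher: nkx6.1 was at 1.14 against 0.354 and foxj1a, also on the floor plate list, was higher as well. nkx2.2a and nkx2.2b were lower. In the Fgf pathway the median log2 ratio was -0.02, and of 16 genes compared fgfr3 was higher, at 1.79 against 0.754, and etv4 lower, at 0.151 against 0.513.

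The OPC list gave the reverse picture. Its direction is not independent of the choice of cells, since sox10 marks this lineage and was used to choose both groups. Of 16 genes compared, 12 were lower and 1 was higher, with a median log2 ratio of -2.54. olig1 was at 0.0946 in gfap+ olig2+ cells and 3.81 in sox10+ cells (log2 ratio -5.33, -5.76 to -4.93), nkx2.2a at 0.149 and 3.34, prdm8 at 0.382 and 4.01, and myrf, the factor that drives myelin genes, at 0.0928 and 2.15. The gene that was higher was lhfpl3, at 0.266 against 0.130. Of 13 myelin genes compared, 11 were lower and none higher: mbpb was at 0.561 against 20.6, mag at 0.0855 against 2.88 and cldnk at 0.0273 against 3.85. A UMI of mbpa, mbpb, cldnk or mag was found in 4.22% of gfap+ olig2+ cells (2.43 to 6.77) at 2000 UMIs, against 30% of sox10+ cells and 2.55% (1.40 to 4.24) of globin-rich cells, so the low share overlaps the background.

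The radial glia list was divided. Of 20 genes compared, 4 were higher and 8 lower than in sox10+ cells, and the summed level of the list was 55.4 against 31.9, of which vim made up 29.0 and 6.32. Among elavl4-low cells 6 of 17 were higher and 4 lower (background 10.7% and 22.6%), so the lower count was close to the share of all genes. Beside vim, msi1 and her4.1 the higher genes included nfia, a transcription factor of glial onset, at 1.15 against 0.455. Among the 8 lower genes, the glutamate transporter slc1a2b was at 0.388 against 2.75, the sodium pump subunit atp1a1b at 0.992 against 3.06, the adhesion gene hepacama at 0.289 against 0.802, and the glial factor sox9b at 0.815 against 2.43. fabp7a was limited by the rule and is not read here. That limit was set for gfap+ olig2+ cells and not for sox10+ cells. It left out 85 cells that met the rest of the rule, with slc1a2b at 3.12, against 0.388 in gfap+ olig2+ cells. Against these 85 cells, 6 of 19 radial glia genes compared were lower in gfap+ olig2+ cells and none was higher. The lower slc1a2b level is therefore not independent of the choice of cells. The part of the fabp7a limit in the other lower levels was not tested.

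By the rule for naming genes, the 10 largest differences at each end were taken among genes with at least 200 UMIs over both groups. On the higher side, sst2, sst1.2, myl10, pvalb4, myl13 and tnnt2d owed 99.5%, 99.2%, 74.4%, 75.9%, 69.4% and 64.6% of their UMIs to 1 cell each, and nme2b.2 owed 46.1%. When the cell with the most UMIs of the gene was left out, sst2 had 2 UMIs left and the log2 ratio of sst1.2 was 1.19, while those of myl10, pvalb4, myl13, tnnt2d and nme2b.2 stayed between 2.76 and 4.36. The 3 others were spread over many cells: neurod4 (above), masp1, a complement protease gene, at 0.408 against 0.0313 with UMIs in 97 cells, and the protocadherin pcdh18b at 0.520 against 0.0434 with UMIs in 130. On the lower side stood the myelin gene mbpa, the collagen col10a1a, the ligand bmp2a, the pigment cell genes pmela, tyrp1a, tyrp1b, dct, gch2 and slc45a2, and CABZ01021592.1. Against a floor of 3 counts over the group, col10a1a was at least 419-fold and gch2 at least 394-fold lower in gfap+ olig2+ cells. tyrp1b was at 0.00910, against 4.01 in sox10+ cells.

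The sox10+ cells thus held pigment and other crest-type transcripts, and only 283 of the 404 had 5 or more UMIs of olig2. Against these 283 cells, which are part of the 404, in a comparison added after the data were seen, 815 genes (8.76%) were higher and 1215 (13.1%) lower. Of the 1053 genes called higher, 990 could be compared here, and 720 (68.4% of the 1053) were called higher too and none lower. Of the 1721 called lower, 1263 could be compared, and 1088 (63.2% of the 1721) were again lower and 1 was higher. In the lists, 10 of 19 progenitor genes (2 lower), 13 of 17 her and hey genes and 10 of 15 proneural genes were higher, and 11 of 15 OPC genes were lower. With both groups limited to elavl4-low cells, 626 of the 1053 and 1370 of the 1721 had enough UMIs to be compared. Of these, 569 (54.0% of the 1053) were again higher and 1144 (66.5% of the 1721) again lower. None of either set was called the other way.

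**Figure D3:**
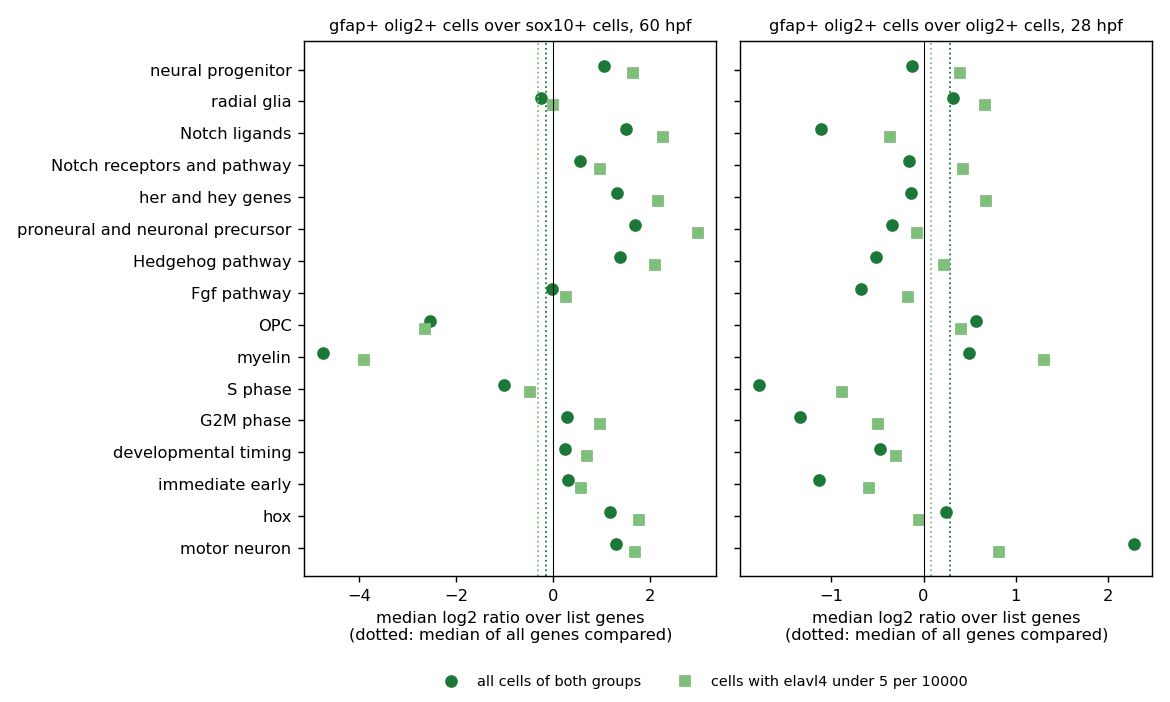
Median log2 ratio over the genes of each list for gfap+ olig2+ cells over sox10+ cells (left) and over 28 hpf olig2+ cells (right), with circles for all cells of both groups and squares for their elavl4-low cells; dotted lines are the medians of all genes compared. Against sox10+ cells the her and hey genes have medians of 1.31 and 2.17 and the myelin genes -4.76 and -3.90; against 28 hpf the S phase genes have -1.78 and -0.88.

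The comparison with 28 hpf asked how the late cells differ from the earlier olig2+ population. Few progenitor genes and no Notch receptor or pathway gene differed 2-fold between the stages. Of the Notch ligands 4 of 8 were lower, and so were most S phase and G2M genes in the whole groups. Among elavl4-low cells fewer S phase and G2M genes were lower, and the share of G2M genes was close to that of all genes. The timing and radial glia lists held genes that went either way. vim was at 29.0 per 10000 in gfap+ olig2+ cells and 30.7 at 28 hpf, lin28a at 4.67 and 26.6, mki67 at 0.883 and 2.14, and fgfbp3 at 3.39 and 0.335. Of 10856 genes compared, 2218 (20.4%) were higher and 1726 (15.9%) lower, with a median log2 ratio of 0.29 over all genes.

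The 2 groups differed in elavl4-high cells: 42.1% of gfap+ olig2+ cells and 5.94% of 28 hpf olig2+ cells were at or above the limit. The comparison was therefore repeated without such cells. This also cut the UMIs of the 60 hpf group from 5495087 to 1921702 and the genes compared from 10856 to 6724. The part of elavl4-high cells in the differences was not measured apart from this loss of counts. With both groups limited to elavl4-low cells, 547 genes (8.14%) were higher and 864 (12.8%) lower, and the median of all genes was 0.08. Of the 2218 genes called higher, 977 had enough UMIs to be compared among elavl4-low cells. Of these, 384 (17.3% of the 2218) were called higher again and 16 lower. Of the 1726 called lower, 1076 could be compared, and 622 (36.0% of the 1726) were lower again and none higher. List counts against 28 hpf are therefore given for both versions below; among elavl4-low cells the background is 8.14% higher and 12.8% lower. With whole groups limited to cells of at most 4000 genes and 20% mitochondrial UMIs, 7626 genes were compared, of which 934 were higher and 883 lower.

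Of 19 progenitor genes compared, 2 were higher and 2 lower, with a median log2 ratio of -0.13, and 3 of 18 were higher and 1 lower among elavl4-low cells. The log2 ratio of nes was -0.05 (-0.12 to 0.03), and that of sox3 0.02 (-0.04 to 0.08). In elavl4-low cells these values were 0.58 (0.48 to 0.67) and 0.72 (0.65 to 0.8), and vim was at 50.4, against 31.8 in elavl4-low cells of 28 hpf. The genes past the limit were ppp1r14ab, a protein phosphatase regulator, at 1.91 against 0.459, and the growth factor gene mdkb, at 1.36 against 0.61, on the higher side, and btg2 and sox19a, at 0.207 against 0.663 for sox19a, on the lower side. After thinning, 48.0% of gfap+ olig2+ cells had a UMI of nes (42.9 to 53.2) and 40.8% of 28 hpf olig2+ cells did (39.2 to 42.4).

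None of the 19 Notch receptor and pathway genes compared was past the limit in either direction. notch3 was at 3.57 against 3.14, lfng at 6.32 against 8.06 and nrarpb at 1.62 against 1.89. Of 8 Notch ligands compared, none was higher and 4 lower, with a summed level of 14.8 against 24.3 and a median log2 ratio of -1.11. Among elavl4-low cells 3 of 7 ligands were lower and none higher, with a median of -0.36, and none of 17 receptor and pathway genes was past the limit. dla was at 5.24 in gfap+ olig2+ cells and 10.4 at 28 hpf (log2 ratio -0.99, -1.04 to -0.93), close to the 2-fold limit, and at 8.46 and 10.9 among elavl4-low cells. dlb was at 6.60 and 9.38. The ligands past the limit were dlc, dll4, jag1a and jag1b, of which dll4 had the highest levels, at 0.32 in gfap+ olig2+ cells and 1.03 at 28 hpf. The share of cells with a UMI of dla, dlb or dld was 73.4% in gfap+ olig2+ cells (68.6 to 77.7), against 84.0% at 28 hpf (82.8 to 85.2).

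Of 17 her and hey genes, 1 was higher and 2 lower than at 28 hpf. The lower genes were her9, at 0.530 against 3.26, and her2, at 0.651 against 2.81, and both remained past the limit among elavl4-low cells, at 1.04 against 3.45 and 1.47 against 3. The higher gene was heyl, at 0.107 against 0.0284. her4.2 was close, at 16.6 against 18.3, and among elavl4-low cells it was at 34.8 against 19.2, with a log2 ratio of 0.86 (0.82 to 0.89). Of 16 genes compared among elavl4-low cells, 6 were higher and 2 lower, her4.1 (17.0 against 7.05) and her13 (3.03 against 1.24) among the higher ones.

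The proneural genes neurog1 and ascl1a were lower. neurog1 was at 0.732 in gfap+ olig2+ cells and 1.74 at 28 hpf (log2 ratio -1.25, -1.40 to -1.11), and ascl1a at 0.255 and 0.629. Among elavl4-low cells the log2 ratios were -0.76 and -0.62, short of the limit. neurod4 was at 1.05 against 1.40. Of 16 genes of the proneural and neuronal precursor list, 3 were higher and 4 lower, and the higher ones were the neuronal genes elavl4, myt1b and sox4a. Among elavl4-low cells 2 of 16 were higher and 3 lower. myt1b and sox4a kept this among elavl4-low cells, at 7.70 against 3.74 and 2.99 against 1.48. The share of cells with a UMI of neurog1, ascl1a or neurod4 was 29.3% (24.8 to 34.2), against 41.5% at 28 hpf (39.9 to 43.1).

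Replication and division genes were lower at 60 hpf in the whole groups. Of 22 S phase genes, 21 were lower and none higher, and of 24 G2M genes compared 20 were lower and none higher. pcna, the sliding clamp of DNA polymerase, was at 0.499 against 1.54, rrm2, which makes deoxynucleotides, at 1.06 against 3.61, and mki67 at 0.883 against 2.14. In elavl4-low cells the gap narrowed: 6 of 18 S phase genes and 3 of 24 G2M genes were lower, and mki67 was at 1.86 against 2.24. The G2M count was thus close to the 12.8% of all genes that were lower among elavl4-low cells. In thinned cells, 2 or more UMIs of the S phase list were found in 15.8% of gfap+ olig2+ cells (12.3 to 19.9) at 2000 UMIs, against 48.2% at 28 hpf (46.6 to 49.9), and 2 or more of the G2M list in 16.4% (12.8 to 20.5), against 32.0% (30.5 to 33.6). For the elavl4-low cells these shares were 17.9% (13.0 to 23.6) and 20.6% (15.5 to 26.6). In sox10+ cells the shares were 16.6% for S phase, with an interval that overlaps, and 8.93% for G2M. By levels, 8 of 16 S phase genes were lower in gfap+ olig2+ cells than in sox10+ cells and none higher, with a summed level of 3.85 against 6.47, and of 22 G2M genes 1 was higher and 1 lower. Among elavl4-low cells of both groups 1 of 15 S phase genes was higher and 4 lower, and 8 of 19 G2M genes were higher and none lower. Free RNA cannot be gauged from the globin-rich cells here, since they themselves had 2 or more S phase UMIs in 30.6%.

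Of 11 genes of cell cycle exit compared, 4 were lower than at 28 hpf and none higher, and among elavl4-low cells 2 were lower and 1 higher. btg2, an antiproliferative gene of neurogenic divisions, was at 4.08 against 9.93, and the cyclin gene ccnd1 at 0.295 against 1.08. Among elavl4-low cells btg2 was at 7.22 against 10.5. gadd45gb.1, a growth arrest gene, was at 0.888 against 0.554, and was the 1 higher gene among elavl4-low cells, at 1.54 against 0.560.

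The timing genes changed in both directions, 4 higher and 5 lower of 17 compared, and 4 higher and 6 lower of 17 among elavl4-low cells. lin28a, an RNA-binding protein that blocks let-7 maturation and keeps early progenitor states, was at 4.67 per 10000 in gfap+ olig2+ cells and 26.6 at 28 hpf (log2 ratio -2.51, -2.57 to -2.45), and at 7.14 and 26.7 among elavl4-low cells. A UMI was found in 48.8% of cells, against 92.6%. sall4 was at 1.02 against 4.13, nr6a1a at 0.0546 against 0.470 and nr6a1b at 0.0801 against 0.398. The chromatin gene hmga1a was at 24.8 against 41.0, short of the limit. On the higher side, nfia was at 1.15 against 0.277 (log2 ratio 2.05, 1.91 to 2.2) and zbtb20, a zinc-finger factor of late progenitors, at 2.84 against 0.853. Both stayed higher in elavl4-low cells, at 1.39 against 0.258 and 2.54 against 0.853.

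**Figure D4:**
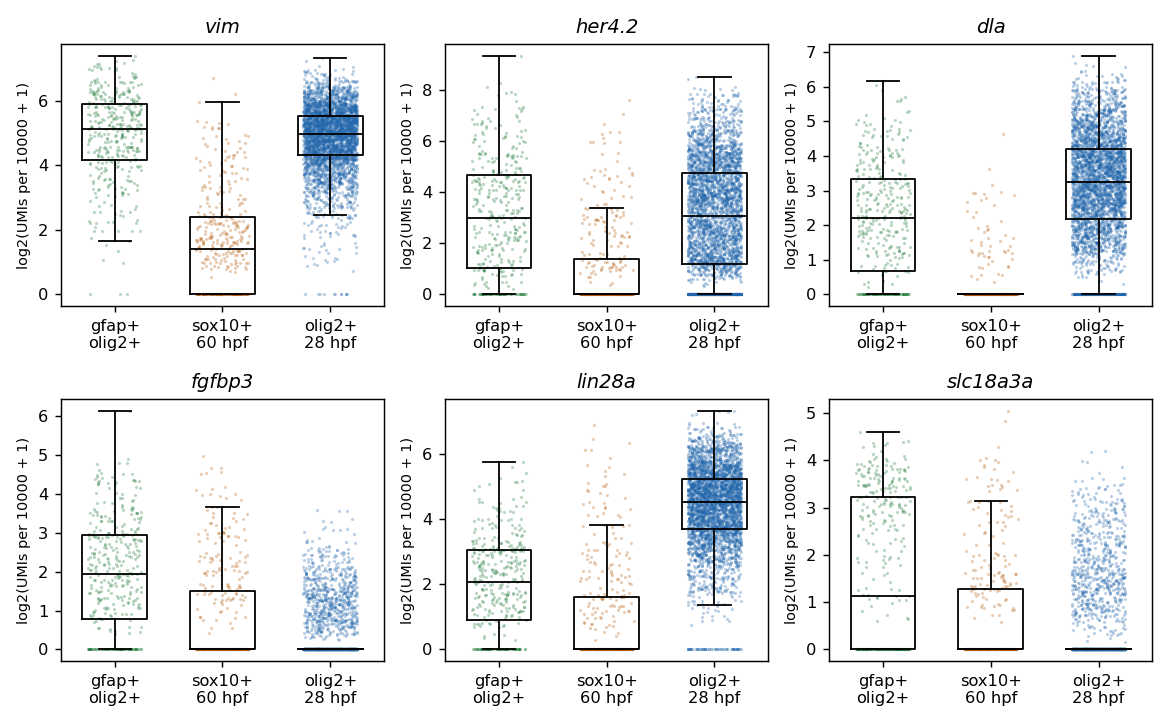
Per-cell values of 6 genes as log2 of UMIs per 10000 plus 1, for 382 gfap+ olig2+ cells, 404 sox10+ cells and 3704 olig2+ cells of 28 hpf; points are cells, boxes span the quartiles with the median as a line, and whiskers reach to the last cell within 1.5 box lengths. In gfap+ olig2+ cells lin28a has a median of 3.24 per 10000 with 77 cells at 0, and slc18a3a spreads over a wide range with 178 cells at 0.

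Among radial glia genes, 5 of 18 compared were higher and 4 lower than at 28 hpf, with summed levels of 55.4 and 55.8. Among elavl4-low cells 6 of 15 were higher and 2 lower. fgfbp3, 1 of the genes that mark the group, was higher, at 3.39 against 0.335 (log2 ratio 3.34, 3.23 to 3.44), and at 5.61 against 0.357 among elavl4-low cells. It was found in 46.2% of gfap+ olig2+ cells after thinning, against 5.82% at 28 hpf and 1.82% of globin-rich cells. hepacama was at 0.289 against 0.00677 and slc1a2b at 0.388 against 0.0896. The glutamate transporter slc1a3a went the other way, at 0.304 against 3.84, and at 0.531 against 4 among elavl4-low cells. The glutamine synthetase genes glula and glulb were also lower, at 0.0819 against 0.351 and 1.39 against 3.03.

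Of the Hedgehog genes, 4 of 15 compared were lower and none higher, with a median log2 ratio of -0.52. Among elavl4-low cells 2 were lower and 1, gas1b, was higher, at 1.23 against 0.468, and the median was 0.22. gli1, whose transcription follows the signal, was at 0.162 against 0.362, and hhip was at 0.577 against 0.551. olig3 was at 0.0328 against 0.621 and nkx2.9 at 0.00546 against 0.330. Of 13 interneuron genes compared 11 were lower and 1 higher, and 7 of 9 were lower and none higher among elavl4-low cells. gad1b, which makes GABA, was at 0.171 against 1.08, and its log2 ratio turned to 0.74 against 28 hpf cells without a UMI of elavl3. Of 18 motor neuron genes, 15 were higher than in sox10+ cells. Against 28 hpf 13 were higher and none lower, with a median log2 ratio of 2.28. Among elavl4-low cells this became 6 higher and 3 lower of 15. The levels of slc18a3a there were 1.58 against 0.509. The share of elavl4-low cells with cholinergic UMIs overlapped that of globin-rich cells, as given above.

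Immediate early genes were lower than at 28 hpf in 11 of 19 cases and higher in 1, which was hsp70l. Among elavl4-low cells 4 of 19 were lower and hsp70l was again the 1 higher gene. egr2a was at 0.135 against 1.18 and the stress factor atf3 at 7.74 against 19.6, while fosab was at 9.87 against 17.1, short of the limit, and at 17.7 against 17.8 among elavl4-low cells. Such genes respond to dissociation, whose part in the difference between the libraries was not tested.

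Hox genes mark position along the trunk. Of 35 compared, 3 were higher and 2 lower than at 28 hpf. Among elavl4-low cells none of 34 was higher and 8 were lower, and against the 28 hpf cells that met the whole rule 13 of 35 were higher and 1 lower, so the count depends on the cells compared. The hox gene of highest level in gfap+ olig2+ cells was hoxc3a, at 8.35 against 3.98, and at 4.67 against 3.96 among elavl4-low cells. hoxb9a was at 4.41 against 4.03. hoxc6b was lower, at 1.09 against 2.88, and hoxc8a higher, at 1.91 against 0.496, though in elavl4-low cells hoxc8a was at 0.536 against 0.478. Against sox10+ cells, where 9.97% of all genes compared were higher and 16.3% lower, 24 of 35 hox genes were higher and 1 lower. That 1 was hoxb7a, at 0.739 against 2.11. The group 13 genes hoxa13a, hoxa13b and hoxb13a were limited by the rule. The sox10+ cells and the 28 hpf olig2+ cells had no such limit, and its part in the other hox levels was not tested.

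The 10 genes that differed most from 28 hpf on the higher side included 6 known by clone name only. CU467822.2 was at 8.19 per 10000 against 0.0771, with UMIs in 360 of 382 cells, and BX465834.1 at 8.49 against 0.106, with UMIs in 374. Both were also present in sox10+ cells, at 3.18 and 4.57, and in the other filtered 60 hpf cells, at 2.28 and 2.81. The others were CR848047.1, CU929451.2, LO017650.1 and CR556696.1. In elavl4-low cells LO017650.1 was at 0.12 and CR556696.1 at 0. The heparan sulfate sulfotransferase genes hs3st2 and hs3st4 were at 0.517 against 0.00547 and 1.61 against 0.0307, and in elavl4-low cells at 0.0989 and 0.114. sst2 and pvalb4 complete the 10, and without the cell that held most of their UMIs the log2 ratios were 0.12 for sst2 and 3.83 for pvalb4.

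On the lower side stood tbx3a, at 0.00182 against 0.522, oc90 at 0.0692 against 3.25, nkx2.9, urp1 at 0.0109 against 1.08, si:ch1073-70f20.1, asb11, phox2bb, crhbp, s100a1 and wfikkn1. urp1 encodes a urotensin-related peptide of neurons that contact the cerebrospinal fluid. asb11, phox2bb and crhbp had no UMI in the gfap+ olig2+ cells and were at least 28.8-, 25.5- and 24.5-fold lower against a floor of 3 counts over the group. Against the 28 hpf cells that met the whole rule, 1676 of the 3704, in a comparison added after the data were seen, 23.0% of genes were higher and 15.9% lower. The Notch ligand list then had 3 of 8 lower and the S phase list 21 of 22. Of 19 progenitor genes 2 were higher and 2 lower, and of 17 her and hey genes 3 were higher and 2 lower. Of 16 proneural and neuronal precursor genes 4 were higher and 3 lower, and of 18 radial glia genes 5 were higher and 4 lower. Of 19 Notch receptor and pathway genes none was higher and 1 lower.

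The cells varied among themselves in cell cycle and proneural transcripts. At 2000 UMIs per cell, 379 of the 382 could be scored. Of them 93 (24.5%) had 2 or more UMIs of the S phase and G2M lists together, 111 (29.3%) had a UMI of neurog1, ascl1a or neurod4, 30 had both and 205 (54.1%) neither. Of the 111 cells with a proneural UMI, 100 (90.1%) also had a UMI of dla, dlb or dld, against 142 of the 205 with neither (69.3%). Of the 218 elavl4-low cells scored, 62 (28.4%) had cycle UMIs and 74 (33.9%) a proneural UMI, and of the 161 elavl4-high cells these were 31 (19.3%) and 37 (23.0%). Since all of these were drawn from the same cells, the shares describe them and were not tested.

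**Figure D5:**
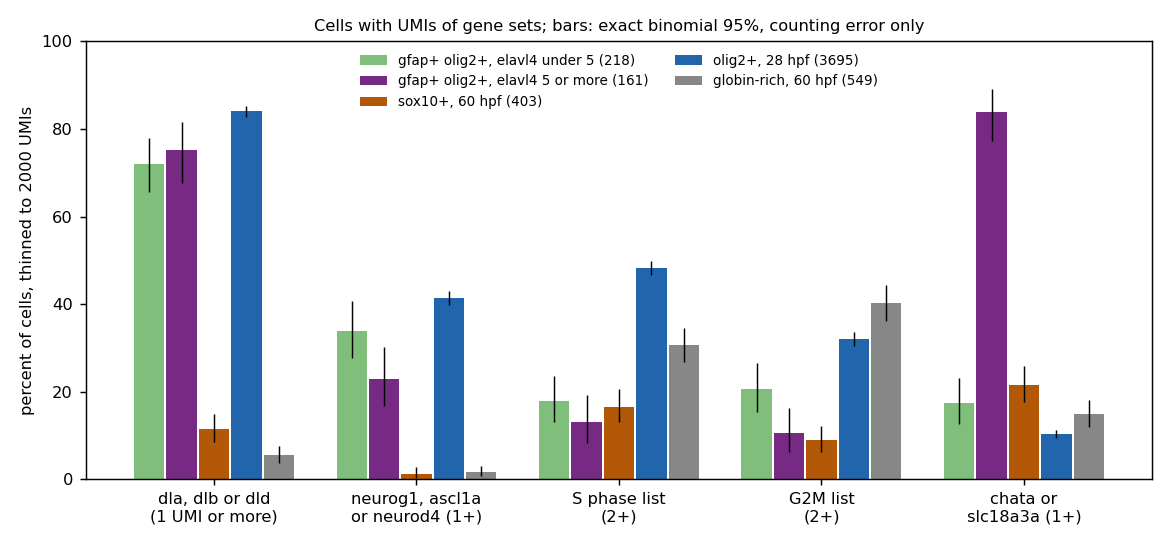
Percent of cells, each thinned to 2000 UMIs, with UMIs of 5 gene sets, for elavl4-low and elavl4-high gfap+ olig2+ cells, sox10+ cells, 28 hpf olig2+ cells and globin-rich 60 hpf cells; bars show exact binomial 95% intervals. Delta ligands are found in 72.0% and 75.2% of the gfap+ olig2+ cells and in 11.4% of sox10+ cells, and cholinergic genes in 17.4% and 83.9% of the gfap+ olig2+ cells.

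Cells of the library that missed the rule only on gfap or only on fabp7a were also compared, and similarity between cells was not measured. Of these, 223 cells met all of it but had fewer than 3 UMIs of gfap. They were shallower, with a median of 6341 UMIs, and 46.6% were at or above the elavl4 limit, against 42.1% of gfap+ olig2+ cells. In gfap+ olig2+ cells 316 of 7674 genes (4.12%) were higher and 96 (1.25%) lower. vim was at 29.0 against 11.5, foxj1a at 2.16 against 0.392, her8a at 0.626 against 0.0629 and pth1a, a parathyroid hormone gene, at 4.87 against 0.373. The mean of pth1a over cells was 6.41 per 10000, against 5.64 in sox10+ cells and 12.9 in 28 hpf olig2+ cells. By summed level gfap+ olig2+ cells were below sox10+ cells. Without the gfap+ olig2+ cell with the most pth1a UMIs, the log2 ratio was -0.73 over sox10+ cells and -1.68 over 28 hpf olig2+ cells. pth1a had no UMI in 208 of the 382 gfap+ olig2+ cells. Of 16 G2M genes compared 11 were higher, and of 15 proneural and neuronal precursor genes 5 were lower and none higher, neurod4 among them at 1.05 against 2.92. The ligand dlb was at 6.60 against 17.7 and gadd45gb.1 at 0.888 against 2.96. The 5 leading genes on the higher side were sst2, sst1.2, myl13, myl10 and pvalb4, of whose UMIs 69.4% to 99.5% came from 1 cell each. On the lower side they were aqp8b, and2, cldni, si:dkey-248g15.3 and and3, at 0.00364 to 0.0346 per 10000 in gfap+ olig2+ cells.

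A further 85 cells met the rule but for 20 or more UMIs of fabp7a, a radial glia lipid-binding protein. They were deeper, with a median of 19072 UMIs, and 55.3% were at or above the elavl4 limit. Few genes separated them: 85 of 8136 (1.04%) were higher in gfap+ olig2+ cells and 206 (2.53%) lower. Lower were the transporters slc4a4a, slc6a9 and slc1a2b, at 0.0419 against 1.28, 0.470 against 3.78 and 0.388 against 3.12, timp2b at 0.992 against 9.50, and zgc:153704. neurog1 was higher, at 0.732 against 0.212, and dld, at 1.59 against 0.673. None of the 19 progenitor genes and none of 17 her and hey genes was past the limit. The her and hey genes summed to 72.4, against 63.7 in these 85 cells. The group markers outside the rule, fgfbp3 and her4.1, summed to 12.5, against 16.9 in the 85 cells. Their log2 ratios were between -0.87 and -0.23, so both were higher in the 85 cells, short of the limit. Of 17 Notch receptor and pathway genes compared, 1 was higher and none lower.

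Set against the other 4585 filtered cells of 60 hpf, 264 of 12112 genes (2.18%) were higher and 1546 (12.8%) lower in gfap+ olig2+ cells. The 5 leading genes were dld, at 1.59 against 0.239 (log2 ratio 2.73, 2.60 to 2.86), gas1b, hhip, si:ch73-21g5.7, at 41.3 against 8.2, and the nerve growth factor gene ngfa, at 0.393 against 0.0802. Of 17 her and hey genes 13 were higher and none lower. The lower genes col10a1a, ins, defbl1, urp1 and ctss2.1 were at or near 0 in gfap+ olig2+ cells.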

How the data were processed

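Counts of unique molecular identifiers (UMIs) per gene and cell were used as deposited. Per the file headers the authors made them with Cell Ranger 5.0.0, and the submitters' processing notes name build GRCz11 and Scanpy; the values are raw counts, with no normalisation. Identifiers that share a symbol were summed, 27771 identifiers giving 27062 symbols. The cells, the lists of genes and the elavl4 limit were chosen with earlier results of these data known, and the comparisons with sox10+ olig2+ cells and with 28 hpf cells that meet the whole rule, and those without the cell that held most UMIs of a gene, were added after the data were seen. UMIs were summed per group, since cells of 1 library are not replicates, and no test was run. Ratios with fewer than 20 expected UMIs in the smaller group were not called, and 1 UMI was added to each group for the 2-fold call only. Genes of the rule were left out of all counts. Genes named in the text are members of the lists, or among the 10 genes at each end of a comparison. These ends were taken among genes past 2-fold with at least 200 UMIs over both groups. Against the other 60 hpf groups, 5 at each end were taken. The gene pth1a was named outside these rules. The term hox13 means hoxb13a, hoxa13a and hoxa13b together. To compare shares of cells, globin genes were removed, each cell was thinned at random to 2000 UMIs, and shallower cells were left out (3 of the gfap+ olig2+ cells). Doublets were predicted from Scrublet scores in Scanpy 1.11.5, over cells with at least 1000 genes. The highest scores were marked at a preset rate of 0.8% for each 1000 cells of the library. This gave 6.71% of such cells at 28 hpf and 4.40% at 60 hpf, shares fixed by cell number. Predicted doublets were kept in the main results and reported. Calculations used Python 3.11.15, numpy 2.4.6, scipy 1.17.1 and pandas 2.3.3, and the counting was tested on simulated data. Other filters, thresholds, thinning depths and fold limits were tried. Sequences were not used here.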

Additional observations from a re-analysis of the deposited data

How the results depend on the processing

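No paired analysis was possible because each stage has 1 library. The share of filtered 60 hpf cells that met the rule was 7.69%; it was 6.28% with at least 500 genes, 6.64% with at most 4000 genes and 20% mitochondrial UMIs, 8.74% with gfap at least 2, 5.48% with gfap at least 6, 6.32% with olig2 at least 10 and 5.47% with thresholds on cells thinned to 4000 UMIs. Against sox10+ cells, genes higher and lower numbered 2072 and 3038 of 10559 compared at 1.5-fold, and 2512 and 5024 of 21561 with no filter on low counts. The lower genes numbered 942 of 7427 without sox10+ cells that held mbpa, mbpb or plp1a, and 1022 of 7464 with at least 50 UMIs. Against 28 hpf, the genes higher and lower numbered 934 and 883 of 7626 with at most 4000 genes, and 935 and 844 of 7448 with thinned thresholds. They numbered 1393 and 1114 of 7521 with at least 50 UMIs, 6914 and 3620 of 24282 with no filter, and 547 and 864 of 6724 in elavl4-low cells. The higher genes numbered 3963 of 10856 at 1.5-fold, and the lower genes 698 of 6129 without 28 hpf cells that held elavl3. Of the log2 ratios of named genes under all alternatives, 1675 stayed within the counting interval of the reported value, 1102 moved outside it and 13 changed sign. The alternatives differed widely. With at least 500 genes 210 stayed, and with totals without globin and mitochondrial genes also 210. With thinned thresholds 172 moved and 30 stayed, and with at most 4000 genes 167 moved and 36 stayed. In elavl4-low cells 180 moved and 20 stayed, and with means over cells 159 moved and 51 stayed. With predicted doublets removed 50 moved and 159 stayed. The ratio of sst1.2 over 28 hpf became -1.82 with at most 4000 genes, -2.89 with thinned thresholds, -2.61 without the cell that held most of it and -1.65 in elavl4-low cells, and over sox10+ cells -0.074 with thinned thresholds. Over 28 hpf, myl10 became -0.14 with at most 4000 genes and -2.11 in elavl4-low cells, myl13 -0.48 in elavl4-low cells, and gad1b 0.74 and pcdh18b 0.43 without elavl3 cells. Over sox10+ cells, mag became 1.91 and cldnk 2.26 without myelin-positive sox10+ cells, from which the alternative removes myelin transcripts by construction, and nme2b.2 -0.041 in elavl4-low cells. For the others the cause was not tested. Thinning to 1000 in place of 2000 UMIs moved 76 shares outside the interval of the reported value and left 14 inside it. Low counts limit genes under about 20 UMIs in the smaller group.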

Other observations

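Matrix and adhesion genes divided between the groups. Against sox10+ cells 5 of 23 compared were higher in gfap+ olig2+ cells and 9 lower (background 9.97% and 16.3%). The proteoglycan genes bcan and vcanb, known from oligodendrocyte precursors, were at 0.00728 and 0.0364 per 10000 in gfap+ olig2+ cells, against 1.28 and 0.79 in sox10+ cells. The levels of both genes are not independent of the use of sox10 to choose the groups. The laminin receptor gene itga6a was at 0.355 against 0.164. Against 28 hpf, 2 of 22 were higher and 8 lower (background 20.4% and 15.9%). Among elavl4-low cells none of 17 was higher and 5 were lower (background 8.14% and 12.8%). In the whole groups sparc was at 0.28 in gfap+ olig2+ cells and 1.43 at 28 hpf, and the laminin gene lamb1a at 0.00728 and 0.115.

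The nuclear factor I genes did not move as 1 group. While nfia was higher in gfap+ olig2+ cells than in sox10+ cells, nfixa and nfixb were at 0.0328 and 0.0164, against 1.3 and 0.275 in sox10+ cells, with 38.9% of the nfixa UMIs in 1 cell. The growth arrest gene gadd45ga was at 0.329 against 2.13 and the cyclin gene ccnd2a at 0.291 against 1.35. These values describe 1 library and were not tested.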
